A study of Homo sapiens with 5 samples.

Results

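The comparison described here set methylated miR-17, labelled 13A, against native miR-17, with 1 RNA library for each. Both oligonucleotides had been transfected into a Dicer-knockout derivative of HCT116, a human colorectal carcinoma line. Dicer cuts microRNA precursors into their mature form, so cells without it make few microRNAs of their own. The series held 3 more libraries from the same knockout background, 1 with a negative control, 1 with native let-7a and 1 with methylated let-7a (19A). The series asked how methylated microRNAs act on the decay of their target mRNAs. The labels give no dose, no time after transfection, no knockout clone and no kind of methyl group. The 13 in 13A was read as a nucleotide position, which is an adenosine in miR-17-5p. Genes were taken by a mean of at least 1 TPM (a length-scaled share of the library's transcripts) over the 5 libraries, which gave 14180 of 57773 listed genes. The value used throughout is log2(TPM + 1) with methylated miR-17 minus log2(TPM + 1) with native miR-17, so a negative value means a lower level with the methylated form. At the limit of the filter, the 49 genes with a mean of 1.0 TPM had differences from -1.77 to 1.0, and the 53 genes just outside it, at 0.98 TPM, from -0.91 to 1.68. With 1 library a side there is no replicate spread and no test, and every difference below describes these libraries only.

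MicroRNAs guide Argonaute proteins to mRNAs by pairing of their seed, nucleotides 2 to 8, with the 3′ untranslated region (3′ UTR) of a target. The bound complex recruits TNRC6 proteins and deadenylases, and the mRNA is shortened at its tail, decapped and degraded. The miR-17 family, made in part from the miR-17-92 cluster, is known as a growth-promoting group of microRNAs in colorectal and other tumours, and its textbook targets include the cell-cycle inhibitor CDKN1A. Pairing of nucleotides 13 to 16, which include the labelled position, can add to seed pairing at some sites.

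The mature sequences show where the label falls. In the following lines, written 5′ to 3′ from RefSeq (GRCh38.p14), capitals mark the seed and nucleotide 13 of members of the miR-17 seed family, and the seed and nucleotide 19 of let-7a. MIR17 lies on chromosome 13, and its mature miR-17-5p spans chr13:91350618-91350640 on the plus strand.
hsa-miR-17-5p: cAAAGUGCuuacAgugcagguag
hsa-miR-20a-5p: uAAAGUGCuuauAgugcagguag
hsa-miR-106b-5p: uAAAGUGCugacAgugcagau
hsa-miR-93-5p: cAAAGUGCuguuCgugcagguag
hsa-let-7a-5p: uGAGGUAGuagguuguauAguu
In all, 8 human microRNAs of the RefSeq table carried this seed. Of those printed, miR-20a-5p and miR-106b-5p also have A at nucleotide 13, whereas miR-93-5p has C there. A 3′ UTR match to the seed reads GCACTTT. It was called 7mer-m8 alone, 8mer where an A follows, and 7mer-A1 where the A follows a match to nucleotides 2 to 7 only.

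Epithelial markers were high in both libraries. EPCAM, a surface adhesion protein of epithelia, stood at 618.8 TPM under native miR-17 and 573.0 TPM under its methylated form, and KRT8, a simple-epithelium keratin, at 2855.6 and 2910.4 TPM. VIL1, a brush-border protein, was listed at 0 in all 5 libraries. So were PTPRC and CD3D, which mark leukocytes, and the fibroblast gene DCN, while the endothelial gene CDH5 reached at most 0.1 TPM. Other mesenchymal and fibroblast genes were present. The collagen COL1A1 had 10.8 to 16.3 TPM over the 5 libraries, and 10 of the 23 genes of that list passed the filter. DICER1, the gene the knockout targets, stood at 15.4 TPM in the control, 11.2 and 12.5 TPM in the native and methylated let-7a libraries, and 15.9 and 12.9 TPM in those of native and methylated miR-17. Gene-level values show no deletion and no parental library was analysed here, so this does not check the knockout. MIR17HG, the host transcript of the miR-17-92 cluster, stayed between 0.1 and 0.6 TPM over the 5 libraries. Mitochondrially encoded genes took 10.9% of the TPM with native and 9.36% with methylated miR-17, and ribosomal protein genes 15.8% and 17.6%. Since TPM is a share, such shifts move the values of all other genes.

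The seed-site genes that stood lowest under miR-17 as a whole are described first. This set holds the 10 genes with a miR-17 seed site, a mean of at least 20 TPM and no value of 0 that lay furthest below the other 3 libraries in the mean of both miR-17 libraries. The choice used both forms equally, so low levels under both are part of it, and only the difference between the forms is not. Their sites, in GENCODE 29 transcripts on GRCh38, are shown for 5 of them, as examples of lower, near-equal and higher levels with the methylated form, and for BTG3, the target with the highest difference. Capitals mark the seed match with the A that follows it in an 8mer.
ENPP5, first of 2 sites, chr6:46160996-46161025, minus strand: tatgtaaagtaccttatgtattGCACTTTA
LIMK1, second of 2 sites, chr7:74122355-74122384, plus strand: aaaactgtgaagctttctcagtGCACTTTg
EREG, chr4:74388434-74388463, plus strand: ttttattttgcactctgtaattGCACTTTt
PFKP, chr10:3136630-3136659, plus strand: taacacttaagttattttatcaGCACTTTA
CDKN1A, second of 2 sites, chr6:36686926-36686955, plus strand: ccccatccctccccagttcattGCACTTTg
BTG3, chr21:17593919-17593948, minus strand: taatctttcttaaaaaatatatGCACTTTA
All of these windows lie in the longest annotated 3′ UTR of their gene. The EREG window is the only one of the 6 with CACT, the complement of nucleotides 13 to 16, ending 2 to 8 bases before the seed match.

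LIMK1, the kinase that inactivates cofilin and so stabilises actin filaments, stood at 60.7 TPM in the control, at 61.9 and 60.3 TPM in the native and methylated let-7a libraries, and at 22.3 and 19.5 TPM in those of native and methylated miR-17. Both miR-17 libraries were far below the other 3, and the methylated form was the lower by -0.18 (log2). ENPP5, a membrane phosphodiesterase family member, followed the same order, with 28.5, 31.2, 31.4, 10.7 and 9.1 TPM in these libraries and a difference of -0.21. EREG, the growth factor epiregulin, which activates the EGF receptor, had 684.1, 758.0, 676.5, 257.1 and 254.4 TPM. Its miR-17 values were nearly equal, at -0.015. F3, the tissue factor that starts coagulation, had 16 and 17.5 TPM with native and methylated miR-17, against 45 to 47.9 TPM elsewhere, a difference of 0.12. The platelet-type phosphofructokinase PFKP had 52.1 and 56.8 TPM against 110.3 to 160.7 TPM. CDKN1A, the p21 inhibitor of cyclin-dependent kinases, had 187.6 and 190.7 TPM against 430.8 to 483.4 TPM. SEMA4B (17.5 and 14.7 TPM), a membrane semaphorin, was lower with the methylated form. The ribonuclease inhibitor RNH1 (28.2 and 29.3 TPM) and the zinc exporter SLC30A1 (25.9 and 27.1 TPM) were slightly higher. Of the 10 genes, 5 were higher and 5 lower with methylated miR-17, where 69.0% of all genes were lower. The differences ran from -0.24 to 0.12 with a median of 0.0042, against a median of -0.089 over all genes. After each gene was centred on the median of genes of like transcript length, the median of the 10 was 0.072.

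**Figure D1:**
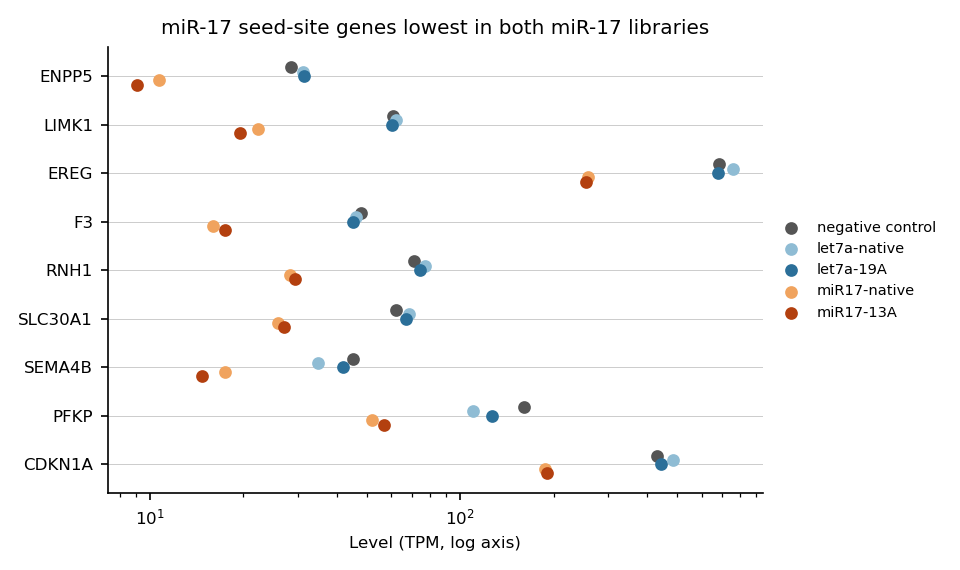
Level in TPM (log axis) of 9 of the 10 miR-17 seed-site genes that were lowest in both miR-17 libraries, 1 point a library, coloured by transfection. The genes were chosen for low levels in the mean of both miR-17 libraries; the 2 miR-17 points of a gene differ by -0.24 to 0.12 (log2), as for LIMK1 at 22.3 and 19.5 TPM.

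A list of 73 known targets of the miR-17 family gave the wider view, and 69 of them passed the filter. The list was chosen with earlier results of these data known. Low levels of its members against the other libraries are therefore not independent evidence. Of these, 56 were lower and 12 higher with methylated than with native miR-17, and FBXO31 was equal at 12.1 TPM. Over all genes, 69.0% were lower and 28.4% higher. The list median was -0.16 and the differences ran from -0.55 to 0.25, so that 0 of 69 reached 1.5-fold in either direction, against 1.57% of all genes upward and 2.73% downward. In both miR-17 libraries 54 of the 69 targets lay below all 3 other libraries, against 24.0% of all genes. The 2 forms share one control. Set side by side against it, the targets had a median of -0.51 with 61 lower (46.5% of all genes lower) for native miR-17, and -0.68 with 67 lower (56.3% of all genes) for the methylated form. At least 2-fold lower than the control were 13 targets with native miR-17 (1.73% of all genes) and 19 with the methylated form (2.40% of all genes). Centred on the median of all genes, the target median between the forms was -0.074.

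Of the 7 groups of targets by role, the cell-cycle members had the median nearest to 0. RBL2, a pocket protein related to RB1, had 11.6 and 11.8 TPM under the native and methylated forms, and 19.6 to 22.1 TPM in the other libraries. The mitotic-entry kinase WEE1 had 8.9 and 9.0 TPM, RB1 itself 24.9 and 24.2 TPM, and cyclin CCND1 272.0 and 260.4 TPM. These pairs are nearly equal and all lie below the 3 other libraries. E2F1 (6.9 and 5.8 TPM) and E2F3 (29.2 and 23.1 TPM), transcription factors that drive S-phase entry, were lower with the methylated form. E2F3 with native miR-17 was above the other 3 libraries, which had 26.5 to 27.2 TPM. Of the 10 members tested, 4 were higher and 6 lower, with a median of -0.051, where 69.0% of all genes were lower.

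Of the TGF-beta, BMP and Wnt pathway members 6 of 7 were lower with the methylated form, where 69.0% of all genes were lower. Their median was -0.28, and -0.077 after each gene was centred on the median of genes of like transcript length. The receptors TGFBR2 and BMPR2 had 27.3 and 12.6 TPM with native, and 22.3 and 10.2 TPM with methylated miR-17. SMAD6 and SMAD7, inhibitors of the pathway, had 7.5 and 11.3 TPM with native, and 4.9 and 8.8 TPM with methylated miR-17. SMAD6 under native miR-17 was above the control (6.7 TPM), and both let-7a libraries, at 3.2 and 4.7 TPM, were below the control. BAMBI, a pseudoreceptor, was the member that was higher, with 28.3 and 30.1 TPM. Its levels of 23.2 and 27.2 TPM in the let-7a libraries were also under the 52.4 TPM of the control.

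In the apoptosis and survival group all 6 tested members were lower, with a median of -0.20, where 69.0% of all genes were lower. The p53-induced protein TP53INP1 had 53.3 and 38.7 TPM under the native and methylated forms, a difference of -0.45. The native value was the highest of the 5 libraries, where the others had 38.4 to 47.4 TPM. BCL2L11, the pro-apoptotic BIM, had 24.4 and 21.1 TPM. MCL1, an anti-apoptotic protein, had 186.4 and 176.6 TPM.

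Kinases, phosphatases and cytoskeletal members, 15 in number, had a median of -0.13 with 12 lower. This count and the next stand against 69.0% of all genes lower. MAP3K2, a kinase upstream of JNK and ERK5, had 9.6 and 8.3 TPM with native and methylated miR-17 against 17.4 to 20.2 TPM elsewhere. JAK1, a cytokine receptor kinase, had 39.3 and 38.3 TPM against 69.4 to 73.0 TPM. RHOC, a small GTPase, was slightly higher with the methylated form, at 166.2 against 160.3 TPM, and both values were under the 266.3 to 286.8 TPM of the other libraries. The 11 autophagy, trafficking and lipid transport members had a median of -0.24 with 9 lower (81.8%). They included FYCO1, which links autophagosomes to kinesin (9.9 and 8.2 TPM), and TMEM127, an endosomal regulator of mTOR (19 and 14.8 TPM). SQSTM1, the autophagy receptor p62, had 156.4 and 162.9 TPM against 273.5 to 361.7 TPM. The cholesterol exporter ABCA1 had the lowest difference of the list, -0.55, at 2.8 and 1.6 TPM, where a single rounding step of the table is large.

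Transcription, chromatin and ubiquitin members had a median of -0.082, with 12 of 14 lower, where 69.0% of all genes were lower. BTG3, an antiproliferative protein, was the highest target of the list at 24.4 and 29.2 TPM, a difference of 0.25, with 58.4 to 66.3 TPM in the other 3 libraries. The helicase ZNFX1 had 20.3 and 19 TPM against 44.2 to 46.4 TPM, and the transcription factor STAT3 57.5 and 51.7 TPM against 74.3 to 83.0 TPM. KAT2B, a histone acetyltransferase, had 4.7 and 3.2 TPM. Among the 6 secreted, membrane and metabolic members, with a median of -0.20, the amyloid precursor APP had 267.2 and 235.3 TPM against 336.6 to 484.9 TPM, and VEGFA, the angiogenic factor, 20.6 and 18 TPM.

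**Figure D2:**
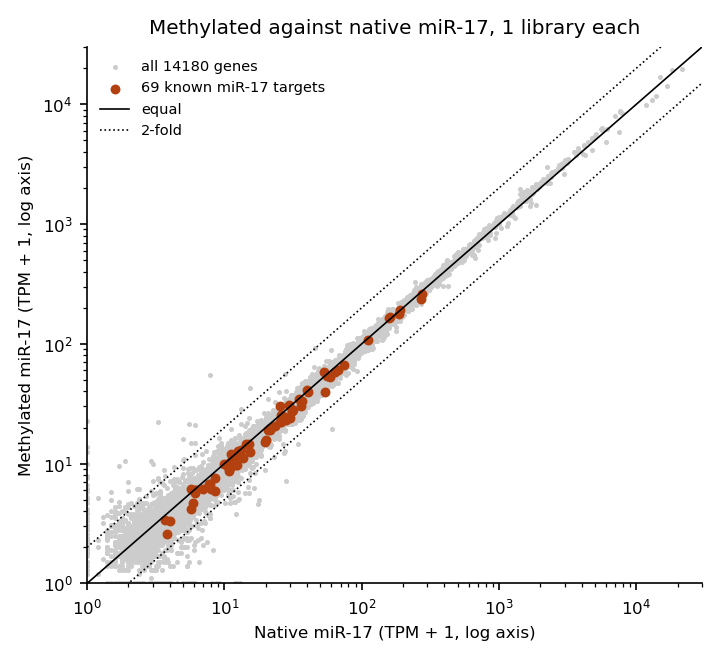
Level with methylated miR-17 against level with native miR-17, both as TPM + 1 on log axes, for all 14180 genes (grey) and 69 known miR-17 targets (red), 1 library a side. The solid line marks equal levels and the dotted lines 2-fold, and all 69 targets lie between the dotted lines.

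Seed sites were then searched in the longest annotated 3′ UTR of each gene, for the 12023 tested genes whose 3′ UTR had 50 bases or more. Genes with a miR-17 site numbered 3787. They had a median difference of -0.12 and 19.4% were higher with methylated miR-17, whereas the 8236 genes without a site had a median of -0.071 and 30.6% higher. In all searched genes 27.1% were higher and 70.6% lower. The classes of site had similar medians. They were -0.13 for 664 genes with an 8mer, -0.12 for 2376 with a 7mer-m8 and -0.12 for 747 with a 7mer-A1. Against the control, in contrast, the 8mer genes had medians of -0.28 with native and -0.43 with methylated miR-17, and the genes without a site 0.055 and -0.016. These values were not centred by length. The longest annotated transcript had a median of 5496 bases for 8mer genes and 3106 for genes without a site. None of the 664 8mer genes differed by 1.5-fold or more between the forms, a size that 0.341% of searched genes reached upward and 0.807% downward.

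Sites of other microRNAs gave similar medians. Genes with a let-7a site, a microRNA transfected into neither library, had a median of -0.14 (2159 genes). Genes with a site for miR-17-3p, the opposite strand of the miR-17 hairpin, had -0.13 (3646 genes). Genes with sites of any of these microRNAs have long 3′ UTRs, with a median of 2782 bases for miR-17, 2985 for let-7a and 2662 for miR-17-3p, against 920 for genes without a miR-17 site.

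Pairing around nucleotide 13 was examined because the 13 in the label was read as the position of the methyl group. CACT, opposite nucleotides 13 to 16, ended 2 to 8 bases before a seed match in 161 of the site genes. These had a median of -0.099 with 23.6% higher, and the other 3626 site genes -0.12 with 19.2% higher. With the longer GCACT, opposite nucleotides 13 to 17, the median was -0.13 over 53 genes. After centring on genes of like transcript length, the CACT genes were at 0.042 with 63.4% above 0. The other site genes were at 0.0041 with 51.1%. The GCACT genes were at 0.047 with 64.2% above 0, and site genes without it at 0.0048 with 51.4%. Among 8mer genes alone the centred medians were 0.010 with CACT (43 genes) and 0.018 without (621). Genes with a single site were also grouped by the base that would face nucleotide 13 without a bulge. The median was -0.12 where it was T, which can pair with A (1159 genes), -0.12 for A (510), -0.11 for C (381) and -0.14 for G (357). The shares of genes higher with the methylated form ran from 19% to 21.7% over the 4 bases.

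**Figure D3:**
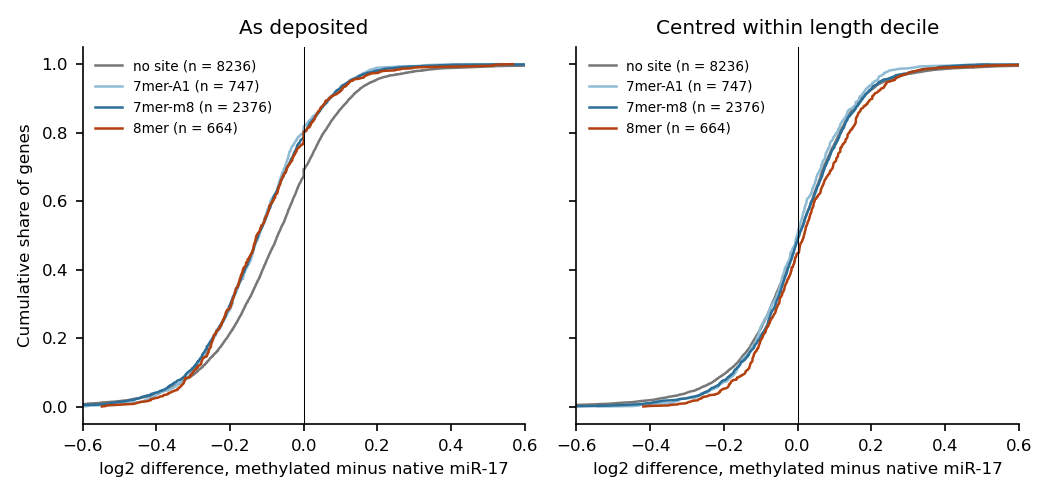
Cumulative share of genes by log2 difference, methylated minus native miR-17, for genes without a miR-17 site and with a 7mer-A1, 7mer-m8 or 8mer site. On the left (values as deposited) the 3 site classes lie together, with medians of -0.12 to -0.13, left of the genes without a site at -0.071. On the right, after centring within deciles of transcript length, the medians of the 4 classes lie between -0.0015 and 0.018.

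The difference was ordered by transcript length over all genes. The longest annotated transcript was known for 13842 genes, which were split into 10 groups of equal size. The median difference was 0.0 in the shortest group and 0.014 in the next, then declined with every group to -0.20 in the longest, with a median length of 9042 bases. Genes higher with methylated miR-17 made up 49.6% of the shortest group and 6.86% of the longest. Across genes, which are not independent, Spearman's rho between length and difference was -0.34. For 3′ UTR length it was -0.34 and for the rest of the same transcript -0.35, so the 3 measures of length gave similar values. For 1408 genes of at least 100 TPM on average, rho with transcript length was -0.50. In the pair of let-7a libraries, methylated minus native, the order ran the other way, from -0.057 in the shortest group to 0.030 in the longest (rho 0.17). That pair shares no library with this one. Single libraries differed as well. The log2 level of each gene, less its mean over the 5 libraries, was set against transcript length. Its rho was 0.27 in the control, -0.036 and 0.14 with native and methylated let-7a, and -0.051 and -0.33 with native and methylated miR-17. The values against the control given above, for targets and site classes, were not centred by length.

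Within a length group, genes with a miR-17 site of any class and genes without a site had similar medians. In the longest group 897 genes with a site were at -0.20 and 466 without at -0.22, and in the sixth, around 3632.5 bases, 373 with a site were at -0.088 and 939 without at -0.091. Centring each gene on the median of its length group, a setting added after the data were seen, brought the site genes to 0.0050 and the genes without a site to 0.0031. The 8mer genes came to 0.018, with 55.3% above 0. By number of sites, the centred medians were -0.0030 for 1, 0.0125 for 2 and 0.035 for 3 or more. The shares above 0 were 49.0%, 54.1% and 59.3%, and the median transcript lengths 4364, 5684 and 7540 bases. In every length group with an 8mer median, it lay above the median of genes without a site. In the sixth these were -0.079 and -0.091, and in the longest -0.19 and -0.22. Whether the number or class of sites contributed was not tested. The known targets came to -0.0090, with 34 above and 35 below 0. By role, the centred medians were -0.054 for apoptosis and survival, -0.042 for autophagy and trafficking, 0.048 for the cell cycle, 0.014 for kinases and cytoskeleton, -0.11 for secreted and metabolic members and 0.064 for transcription and chromatin. Their median transcript length was 5231 bases. With this centring BTG3 stood at 0.24, PFKP at 0.17, SLC30A1 at 0.20, LIMK1 at -0.095 and TP53INP1 at -0.29. Whether RNA length, RNA quality or library preparation contributed to these values was not tested.

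**Figure D4:**
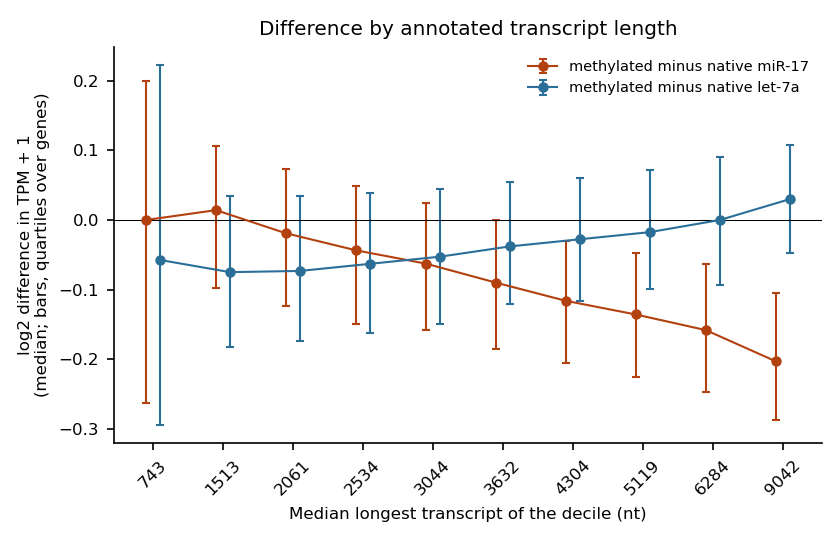
Median log2 difference in TPM + 1 (points) with quartiles over genes (bars) in 10 groups of longest annotated transcript, for methylated minus native miR-17 (red) and methylated minus native let-7a (blue). The red points decline from 0.014 in the second group to -0.20 in the last, and the blue points go up to 0.030.

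Ribosomal protein genes and noncoding snoRNA hosts had the highest medians among lists with at least 10 members tested. All 45 ribosomal protein genes tested were higher, with differences from 0.023 to 0.28 and a median of 0.14, where 28.4% of all genes were higher. RPS16, of the small subunit, had 1730.4 and 2052.4 TPM under the native and methylated forms, and RPL14, of the large subunit, 1510.9 and 1833.6 TPM. For both genes the methylated miR-17 value was the highest of the 5 libraries. Transcripts of ribosomal protein genes, and of many snoRNA hosts, begin with an oligopyrimidine tract that ties their translation and stability to mTOR. Of 15 noncoding snoRNA hosts, 14 were higher, with a median of 0.14, such as SNHG12 (8.8 and 11.6 TPM), SNHG8 (165.5 and 194.0 TPM) and SNHG5 (83.2 and 96.3 TPM). SNHG6 was the other, at 388.0 and 385.0 TPM. After length centring the ribosomal protein genes were at 0.16 and the snoRNA hosts at 0.15. The centring uses the longest annotated transcript, which need not be the form expressed. For RPL14 that transcript has 7072 bases, and its value went from 0.28 to 0.44. The centred values therefore do not show that these genes rose apart from RNA length.

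The respiratory chain parted by genome. Of 38 nuclear genes for its subunits, 31 were higher with methylated miR-17, with a median of 0.083, among them COX5B of complex IV (268.2 and 311.5 TPM) and NDUFS3 of complex I (39.7 and 46.7 TPM). NDUFB8, also of complex I, was the one member past 1.5-fold, at 1.3 and 2.5 TPM. All 13 mitochondrially encoded mRNAs were lower, with a median of -0.24 and differences from -0.36 to -0.077. MT-ND5, a complex I subunit, stood at 2435.3 TPM in the control, 1673.3 and 2047.4 TPM in the native and methylated let-7a libraries, and 1843.7 and 1440.6 TPM in those of native and methylated miR-17, the last being the lowest of the 5. MT-ND4L had 7469.8 and 5819.7 TPM. The annotated entries of the list are short, with a median of 784 bases, and those of MT-ND4L and MT-ATP8 have 297 and 207 bases. By annotated length the list did not follow the order. After length centring its median was -0.24, with all 13 below 0. An annotated entry need not have the length of the RNA that carries it, and RNA lengths were not measured. In the let-7a pair all 13 were higher with the methylated form, with a median of 0.21, where 39.8% of all genes were higher.

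Cell-cycle lists lay above the median of all genes. Of 40 G2/M and mitosis genes 27 were higher with methylated miR-17, with a median of 0.047, such as the CDK-binding protein CKS2 (415.1 and 495.3 TPM), the survivin gene BIRC5 (116.1 and 133.2 TPM) and the spindle protein NUSAP1 (82.7 and 94.2 TPM). The long transcripts of KIF11 (19.4 and 16.6 TPM), CENPF (46.4 and 39.9 TPM) and MKI67 (78.3 and 69.6 TPM) were lower. After length centring 35 of the 40 were above 0, with a median of 0.12. In bulk RNA, a different share of cells in mitosis and a different amount of these mRNAs per cell cannot be told apart. In the let-7a pair all 40 were lower with the methylated form, with a median of -0.27, where 57.1% of all genes were lower. G1/S and DNA replication genes were split, with 23 of 43 higher and a median of 0.0036. CHAF1B, a histone chaperone subunit, had 8.6 and 11.4 TPM, and CDC45, of the replicative helicase, 8.4 and 9.9 TPM.

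Several lists had medians near 0 between the forms, and higher ones after length centring, at 0.14 for hypoxia, 0.085 for cholesterol synthesis, 0.063 for interferon-stimulated and 0.12 for heat shock genes. Hypoxia and glycolysis genes had medians of -0.78 with native and -0.80 with methylated miR-17 against the shared control, and of 0.030 between the forms, with 21 of 37 higher. Their summed levels were also below the control (25509.7 TPM) with native and methylated let-7a, at 17869 and 20995.9 TPM. In the let-7a pair 35 of the 37 were higher with the methylated form, with a median of 0.37, where 39.8% of all genes were higher. The aldolase ALDOC had 152.9 and 193.6 TPM against 413.3 TPM in the control and 222.3 and 284.7 TPM with native and methylated let-7a. The enolase ENO2 had 32.2 and 38.8 TPM against 78.1 TPM in the control and 44.9 and 61.1 TPM with native and methylated let-7a. EGLN1, the prolyl hydroxylase that marks HIF1A for decay, has an 8mer site and had 23.4 and 19.7 TPM. Cholesterol synthesis genes had medians of -0.46 and -0.45 against the control and of -0.0092 between the forms, with 12 of 30 higher. The sterol dehydrogenase NSDHL had 57.1 and 70.2 TPM and farnesyl diphosphate synthase FDPS 141.8 and 157.8 TPM. The desaturase SCD, with 2957.4 and 2606.5 TPM, and the sterol carrier STARD4 (42.1 and 36.4 TPM) were lower. Interferon-stimulated genes had 19 of 33 higher and a median of 0.018, with the antiviral membrane proteins IFITM1 at 18.5 and 25.2 TPM and IFITM2 at 409.2 and 470.8 TPM. Heat shock genes had 12 of 19 higher and a median of 0.041, with the mitochondrial co-chaperonin HSPE1 at 152.1 and 183.7 TPM.

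Most other lists had negative medians, as all genes together did (-0.089), and their counts of lower members stand against 69.0% of all genes lower. RNA silencing genes had 28 of 31 lower and a median of -0.12. The Argonautes AGO1 (22.9 and 17.3 TPM) and AGO2 (34.5 and 27.1 TPM), which carry the microRNA, and TNRC6C (10.6 and 7.4 TPM), which recruits deadenylases, were lower with the methylated form. Each of these 3 has a miR-17 site and a transcript of at least 9740 bases. The list was at 0.010 after length centring. Of the m6A writers, erasers and readers 18 of 20 were lower, with a median of -0.061 that turned to 0.021 after length centring, including the demethylase ALKBH5 (74.8 and 64.0 TPM). The demethylase FTO was higher, at 10.9 and 11.7 TPM. Immediate early genes had 26 of 36 lower, a share (72.2%) near that of all genes, and a median of -0.11 that turned to 0.011 after length centring, with the AP-1 members FOSL2 at 11.8 and 8.7 TPM and FOSL1 at 75.5 and 89.9 TPM. For TGF-beta response genes the counts were 13 of 18 lower (72.2%), with a median of -0.16 and of -0.068 after length centring, including the SMAD corepressors SKI (25.5 and 19.5 TPM) and SKIL (12.7 and 9.6 TPM). Of p53 targets 17 of 25 were lower (68.0%), with a median of -0.13, including the death receptor FAS (6.2 and 4.3 TPM). The median was -0.041 after length centring, still with 17 below 0. ATF4 and unfolded protein response genes had 25 of 33 lower and a median of -0.085, or -0.035 after length centring, with the amino acid transporters SLC7A5 (671.7 and 519.7 TPM) and SLC7A11 (60.6 and 47.1 TPM).

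The let-7 target list, whose microRNA was in neither library, had the same rounded median as the miR-17 targets. Of 46 members 40 were lower with methylated miR-17, with a median of -0.16. The growth factor receptor IGF1R had 8.3 and 5.4 TPM and the cyclin-dependent kinase CDK6 78.9 and 56.5 TPM. Their longest transcripts have 12235 and 11612 bases. The list is not free of miR-17 sites. Of its 45 members with a searched 3′ UTR, 22 have one, IGF1R and CDK6 among them. After length centring the list was at -0.020. In the Wnt and stem-like colon list 16 of 19 were lower, with a median of -0.095, among them the transcription factor SOX4 (386.0 and 302.4 TPM). Epithelial adhesion genes had 15 of 23 lower and a median of -0.070, with E-cadherin CDH1 at 76.0 and 61.3 TPM. Of 10 mesenchymal genes 6 were lower, with a median of -0.031, and the collagen COL6A1 had 142.7 and 108.5 TPM. Replication-dependent histones had 7 of 11 higher and a median of 0.048, microRNA host genes 16 of 21 lower and -0.11, and NF-kB inflammatory genes 9 of 13 lower and -0.10. After length centring the Wnt list was at -0.0036, epithelial genes at 0.016, mesenchymal genes at 0.068, microRNA hosts at 0.0049 and NF-kB genes at 0.013. In the blood and immune list 4 of 14 genes passed the filter, with summed levels of 10.1 to 13.8 TPM per library, and HBA1, a globin, was 2-fold higher with the methylated form at 0.5 and 2.0 TPM. In the endothelial list 1 of 7 matched genes passed.

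**Figure D5:**
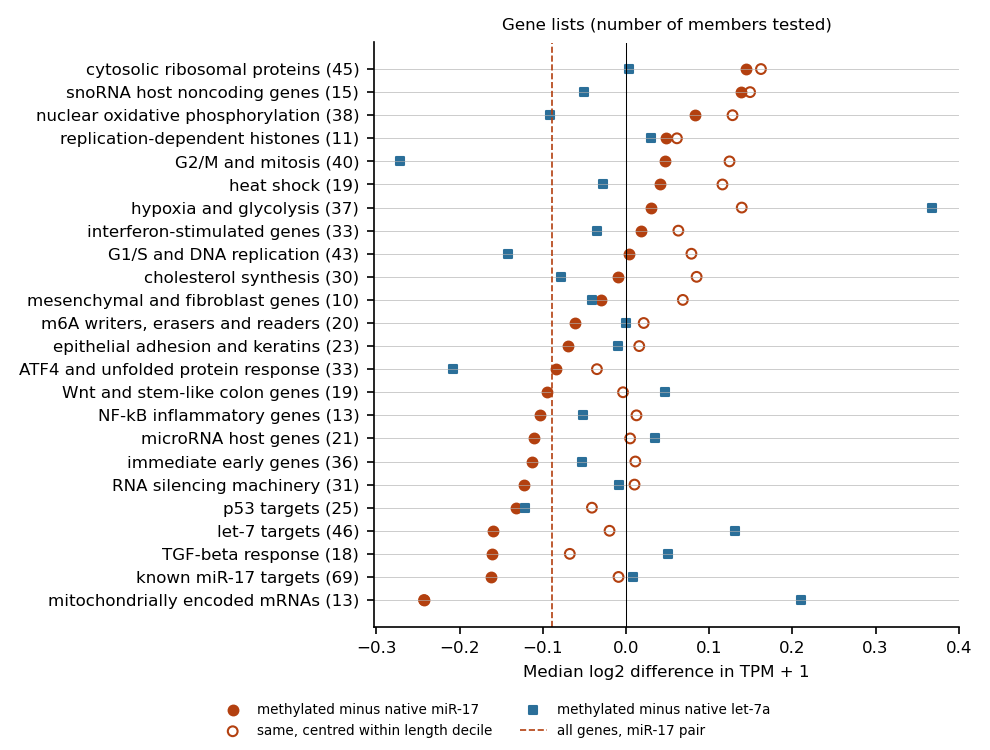
Median log2 difference in TPM + 1 of each gene list with at least 10 members tested (number in brackets), for methylated minus native miR-17 (filled red), the same after centring within length groups (open red) and methylated minus native let-7a (blue squares). The dashed line marks all genes in the miR-17 pair at -0.089; ribosomal protein genes lie furthest right at 0.14 and mitochondrially encoded mRNAs furthest left at -0.24.

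Large differences between the forms were few and mostly at low levels. At least 2-fold higher with methylated miR-17 were 97 genes (0.684% of genes tested) and at least 2-fold lower 141 (0.994%). Of these calls 40.8% were higher, and 54.5% with a pseudocount of 5. Of these, 74 and 113 had a mean under 5 TPM, and 37 and 49 were listed at 0 in 1 of the 2 libraries. A mean of at least 20 TPM and no value of 0 was met by TMEM189-UBE2V1 and AC012379.1 (14.3 and 41.6 TPM) among the higher genes, and by RP11-1035H13.3 (59.6 and 18.4 TPM) and RP11-321N4.5 (26.6 and 11.7 TPM) among the lower. A searched 3′ UTR was held by 22 of the lower genes (0.183% of searched genes) and 19 of the higher (0.158%). A miR-17 site was found in SRGAP2B (26.1 and 11.3 TPM) and TLCD2 (3.9 and 1.3 TPM) among the lower genes and in CHRFAM7A (0.4 and 1.8 TPM) among the higher. SRGAP2B and CHRFAM7A are partial copies of other genes, so their values are uncertain. Of the 10 possible pairs of libraries, the miR-17 pair had the fewest genes past 2-fold, 238, against 274 for the let-7a pair.

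Among well-expressed protein-coding genes, the 12 most negative differences, from -1.64 to -0.54, belonged to genes with a median transcript length of 5460 bases. They included regulators of chromatin and transcription. The histone methyltransferase KMT2D stood at 25 TPM in the control, 23.1 and 26.6 TPM in the native and methylated let-7a libraries, and 23.9 and 15.1 TPM in those of native and methylated miR-17, a difference of -0.63. ARID1A, a SWI/SNF subunit, had 36.2 and 23.9 TPM with native and methylated miR-17, the Wnt coactivator BCL9 26.8 and 17.8 TPM, and the homeobox factor HOXB5 31.8 and 20.9 TPM. For KMT2D, ARID1A and HOXB5 the methylated miR-17 value was the lowest of the 5 libraries. ARID1A and BCL9 have no miR-17 site in the searched 3′ UTR, as is the case for KMT2D and HOXB5. KLF13, a zinc finger factor with a 7mer-m8 site, had 30.1 and 20.2 TPM. After length centring KMT2D was at -0.43 and HOXB5 at -0.56.

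The 12 most positive differences, from 0.41 to 1.02, belonged to genes with a median transcript length of 1467 bases. Of these, 7 are readthrough entries, near-identical copies or entries that overlap another gene, where the split of reads is uncertain. The readthrough gene TMEM189-UBE2V1 had 26.4 and 54.6 TPM, while its sum with the entries of TMEM189 and UBE2V1 was 219.2 and 230.4 TPM. BLOC1S5-TXNDC5 had 19.9 and 33.7 TPM, and 275.1 and 262.8 TPM with its component genes. The second entry of NDUFA7, a complex I subunit, had 44.8 and 90.5 TPM, and both entries together 90.7 and 132.2 TPM. Metallothioneins, zinc-binding proteins induced by metals, were also in this group. MT2A stood at 1526.7 TPM in the control, 2819.3 and 2757.4 TPM in the native and methylated let-7a libraries, and 1429.5 and 1954.0 TPM in those of native and methylated miR-17. MT1X had 244.1 and 329.0 TPM and MT1F 26.9 and 39.4 TPM with native and methylated miR-17. For MT2A and MT1X the native miR-17 level was close to the control and the methylated level lay between it and the let-7a libraries. The whole family was looked at after these values were seen. Of 7 members tested 5 were higher and 2 lower, where 28.4% of all genes were higher and 69.0% lower. MT1E (1408.0 and 1785.8 TPM) and MT1B (0.5 and 2.0 TPM) were the other higher members, and MT1G (2.2 and 1.3 TPM) and MT1L (1.0 and 0.0 TPM) were lower, all but MT1E at levels near the filter.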

How the data were processed

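RNA from 5 libraries of a Dicer-knockout derivative of HCT116 was analysed, 1 library per transfection. Isogen was used for RNA extraction and the stranded total RNA libraries were depleted of ribosomal RNA, per the labels' protocols. The authors deposited gene-level TPM values, rounded to 1 decimal, and scaled to the same total in each library. The genome build was hg19, per the submitters' processing notes. Aligner, counter and annotation: not given in the sources used here. Read depth is unknown, so no counting interval is given.

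Differences of log2(TPM + 1) were computed for genes whose mean over the 5 libraries reached 1 TPM, with pandas 2.3.3 and SciPy 1.17.1 in Python 3.11.15, after tests on simulated data. The pseudocount of 1 understates changes of low genes. The rules of size, 1.5-fold and 2-fold, are not tests. Seed sites and transcript lengths came from GENCODE 29 (GRCh38), matched by gene identifier, with a length for 97.6% of genes tested. Coordinates refer to GRCh38 only. Named genes were the 12 most positive and 12 most negative protein-coding genes with a mean from 20 TPM and never 0, the 3 highest and 3 lowest members of each list from 5 TPM, the 10 seed-site genes lowest in both miR-17 libraries, and members describing each target role. The last of these, some further list members, genes behind small counts and entries sharing exons with named genes were picked after their values were seen. The comparison, its targets and the 25 other lists were chosen with earlier results of these data known. Some genes that the rule takes are not reported here by name. Alternatives were the pseudocount, the filter, centring, leaving out mitochondrial genes, the site definition and, added later, length centring and protein-coding genes alone.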

Additional observations from a re-analysis of the deposited data

Results flagged for a closer look

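Of the gene lists, 2 had medians of at least 0.1 (log2) in opposite directions in the miR-17 and let-7a pairs of methylated minus native libraries, which share no library. The difference between the pairs was not tested, since each holds 1 library a side. The let-7 targets had a median of -0.16 with miR-17 and of 0.13 with let-7a. In the let-7a pair this microRNA was itself transfected. The mitochondrially encoded mRNAs had a median of -0.24 with miR-17 and of 0.21 with let-7a, and all 13 members had these directions.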

How the results depend on the processing

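With 1 library per group, no replicate could be left out. No paired analysis was possible because each group holds 1 library and no test was made. The 97 genes at least 2-fold higher and 141 lower with methylated miR-17 became 184 and 259 with a pseudocount of 0.1, 18 and 15 with a pseudocount of 5, 23 and 28 with a mean of at least 5 TPM, 206 and 275 without a filter, 33 and 42 among protein-coding genes alone, and 223 and 387 at 1.5-fold. Centring on all genes gave 112 and 120. The share of higher calls, 40.8%, was 54.5% with a pseudocount of 5.

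List medians moved by less than 0.1 (log2) except under the settings named next. Among protein-coding entries alone the snoRNA hosts were at 0.0038. This setting leaves out most of that list, which holds noncoding genes, 1 of 15 with a searched 3′ UTR. The value therefore does not describe the list. With centring on length groups, which like the protein-coding setting was chosen after seeing the data, the known miR-17 targets moved from -0.16 to -0.0090, the let-7 targets from -0.16 to -0.020 and the hypoxia and glycolysis genes from 0.030 to 0.14. Lists with a median beyond 0.1 that changed sign were RNA silencing (-0.12 to 0.010), NF-kB inflammatory (-0.10 to 0.013), immediate early (-0.11 to 0.011) and microRNA host genes (-0.11 to 0.0049), besides the miR-17 seed-site genes (-0.12 to 0.0050). Of lists nearer 0, the m6A (0.021), epithelial (0.016), mesenchymal (0.068) and cholesterol genes (0.085) also turned positive. Site genes with a match to nucleotides 13 to 16 moved from -0.099 to 0.042. By construction this centring removes any shift shared by genes of like length. Read depth is unknown, so precision at low TPM cannot be given.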
